A study of Homo sapiens with 4 samples.

Results

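Intermediate filament genes expressed in HEK293T cells were compared between Helz-null and wild-type (WT) cells. The set consisted of 7 of the 27011 genes in the count table, namely the neurofilament genes NEFL, NEFM and NEFH, the neuronal genes INA and PRPH, NES (nestin) and VIM (vimentin). The genes were chosen by family and by their presence in HEK293T cells, with the change of NEFM between the same libraries already known, so that the values of all 7 between Helz-null and WT cells are a description. Of the 7 genes, 5 were among the 10978 genes of the deposited comparison, which are the genes tested here. NEFH and PRPH were outside them, and their values come from a fit of the 16087 genes that passed filterByExpr, the expression filter of edgeR, as all 7 genes did.

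Intermediate filaments are flexible, rope-like cytoskeletal fibres whose subunits are made in a cell type-specific manner. In neurons, the light (NEFL), medium (NEFM) and heavy (NEFH) neurofilament proteins assemble together with alpha-internexin (INA) or peripherin (PRPH), and the medium and heavy subunits carry long phosphorylated tails that project from the filament. Nestin marks neural progenitor cells and assembles with vimentin, the principal intermediate filament of mesenchymal and of many cultured cells. HELZ, the gene edited in these cells, encodes a putative RNA helicase that binds the CCR4–NOT deadenylase complex, which shortens the poly(A) tails of mRNAs.

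RNA-Seq was performed on 2 libraries of WT and 2 of Helz-null HEK293T cells, an established human embryonic kidney line, all untreated. The Helz-null cells are a single line made by Cas9 editing of HELZ with a frameshift deletion, so that line and genotype cannot be told apart. The libraries of each genotype were described as biological replicates. Library totals lay between 41745401 and 70464140 counts, and 3 counts correspond to 0.043 to 0.073 CPM, a count scaled to the size of its library. HELZ itself was measured at 99.8 and 103.9 CPM in the WT libraries and at 36.98 and 37.88 CPM in the Helz-null libraries, a log2 fold change (log2FC, Helz-null over WT) of -1.44, so the labels of the libraries matched the edited gene. All CPM were normalized by the TMM method, and genes were called by the quasi-likelihood F test of edgeR at a false discovery rate (FDR) under 0.005. Levels of different genes are compared as FPKM, which divides by the gene width, except that VIM-AS1 is set beside VIM in counts.

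The intermediate filament mRNAs of the Helz-null cells did not move together. NEFM and NES were up-regulated, INA and VIM were down-regulated, and NEFL was not called. The changes of NEFM and INA were by far the largest, and they ran in opposite directions. Of the 5 tested genes, 2 were called higher and 2 lower, where 13.9% of all tested genes were called higher and 15.5% lower. The values of the WT and Helz-null libraries did not overlap for 4 of the 5 genes, and 70.6% of all tested genes were separated in the same way. The median log2FC of the 5 genes was -0.041, against -0.00091 for all tested genes. In RNA from whole cultures, fewer cells that make an mRNA and less of that mRNA per cell cannot be told apart.

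**Figure D1:**
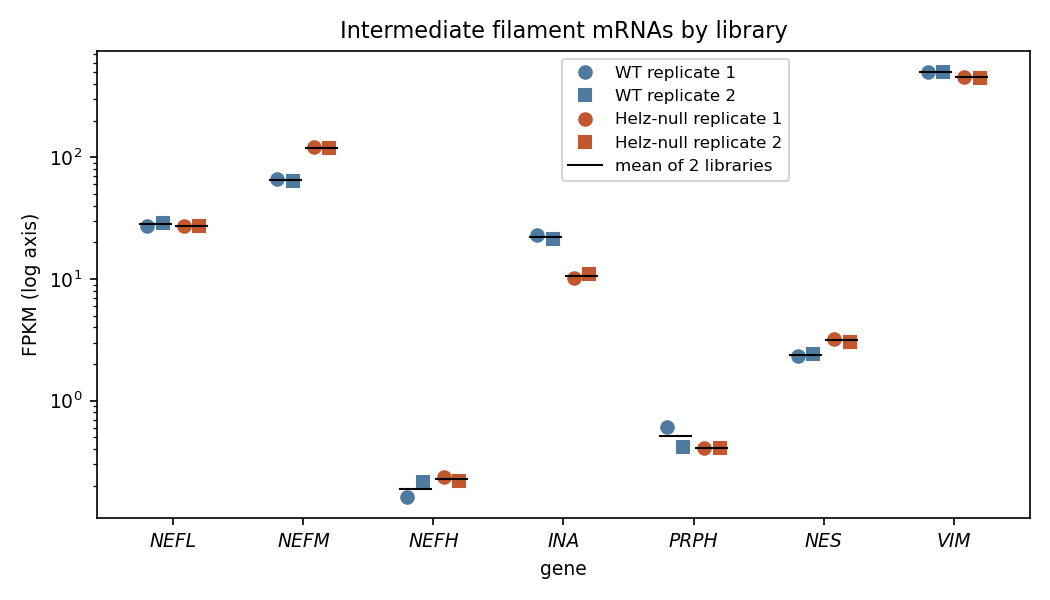
FPKM (log axis) of the 7 intermediate filament genes in each of the 4 libraries, with circles for replicate 1, squares for replicate 2, blue for WT, orange for Helz-null and a black line at the mean of each pair. VIM (502 FPKM in WT) stands at the top and NEFH and PRPH lie below 1 FPKM, while NEFM (higher) and INA (lower) show the widest gaps between the genotypes.

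NEFM, the medium neurofilament subunit, is a plus-strand gene of chromosome 8 (24771271 to 24776611, hg19). It was covered by 15135 and 9441 counts in the WT libraries and by 18125 and 30283 counts in the Helz-null libraries. Its normalized levels were 241.0 and 230.3 CPM in WT cells and 438.6 and 434.4 CPM in Helz-null cells. Both Helz-null libraries exceeded both WT libraries, and the gap between the groups was 193 CPM. The mean level was 1.85-fold higher in Helz-null cells (log2FC 0.89 ± 0.029 SE, edgeR adjusted p = 1.26e-25). Among all tested genes, 76 had a larger absolute log2FC. At 65.0 ± 2.10 FPKM in WT cells (SD, n = 2), NEFM was more abundant than 89.5% of the tested genes.

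NEFL, the light subunit, which is able to form filaments by itself, is a minus-strand gene of the same chromosome (24808468 to 24814235). The ends of NEFM and NEFL are 31.9 kb apart. NEFL was measured at 104.9 and 111.3 CPM in WT cells and at 104.5 and 105.2 CPM in Helz-null cells. The libraries of the groups overlapped, and WT replicate 2 was the highest of the 4. The log2FC was -0.041 with a standard error of 0.036 (edgeR adjusted p = 0.37), and without WT replicate 2 its sign turned (0.0017). The change of NEFM was thus not accompanied by one of comparable size in the gene beside it.

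NEFH, the heavy subunit (chromosome 22, 29876207 to 29887379, plus strand), was barely covered, with 38 and 33 counts in WT and 36 and 57 counts in Helz-null cells. These correspond to 0.605 and 0.805 CPM in WT and to 0.871 and 0.818 CPM in Helz-null cells, a gap between the groups of 0.013 CPM, which is less than the value of 3 counts. The log2FC was 0.28 with a standard error of 0.32 (adjusted p = 0.55, edgeR fit of the genes passing filterByExpr), and NEFH was not called. In that fit 21.4% of the genes were called in either direction, and neither NEFH nor PRPH was among them. The heavy subunit was below 1 FPKM in every library, so a change of its mRNA was not detectable at this depth unless it was large.

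INA, which encodes alpha-internexin, an early neuronal subunit that coassembles with the neurofilament proteins, showed the largest fall of the 7 genes. The gene occupies 105036895 to 105050103 of chromosome 10 on the plus strand. INA was measured at 74.4 and 68.4 CPM in WT cells and at 33.1 and 35.7 CPM in Helz-null cells. Both Helz-null libraries lay below both WT libraries by at least 32.8 CPM. The mean level was 2.08-fold lower in Helz-null cells (log2FC -1.05 ± 0.049 SE, edgeR adjusted p = 1.58e-20). Of all tested genes, 52 had a larger absolute log2FC, and HELZ was 1 of them. The counts behind these values were 4673 and 2806 in WT and 1367 and 2488 in Helz-null cells.

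Sequences of the 3′ UTR of INA are shown because this mRNA fell most and because its 3′ UTR holds the most copies of the pentamer ATTTA, the core of AU-rich elements, which are known as sites through which decay factors reach CCR4–NOT. The single copies in the 3′ UTRs of VIM, which fell slightly, and of NEFH, which was not called, are shown for comparison. Copies in NEFM, which rose, and in NEFL are counted below but not printed, so the lines shown are no sample of all directions of change. Each line gives 29 bases from the GENCODE v44 canonical transcript on GRCh37, 5′ to 3′ on the plus strand, with the pentamer in capitals.
INA chr10:105048539-105048567: cttcagtctcatATTTAgtattgaatact
INA chr10:105049224-105049252: ttacacaaatctATTTAattaggaaaaaa
INA chr10:105049318-105049346: agccgaccttagATTTAgtagtgtaagct
INA chr10:105049378-105049406: agccaaggtgtcATTTAtgtgtcagttca
VIM chr10:17279424-17279452: cactcctacaagATTTAgaaaaaagttta
NEFH chr22:29886999-29887027: ccaaataagtgcATTTAttgcctctatgt
The search covered the sense strand of each 3′ UTR. INA holds 4 copies in 1677 bases of 3′ UTR, NEFL 3 in 1855 bases, NEFM 1 in 487 bases, NEFH 1 in 687 bases and VIM 1 in 322 bases, while NES (559 bases) and PRPH (333 bases) hold 0. The pentamer is common, being present in 74.1% of the 3′ UTRs of tested genes, and in 88.2% of those of about the length of INA's (0.8 to 1.25 times). Among 3′ UTRs of about the length of NEFM's it is present in 54.0%. The motif TGTANATA, the letters bound by Pumilio proteins, was found in 0 of the 7 3′ UTRs and in 30.6% of those of all tested genes, and in 10.1% to 33.8% of those of a length comparable to each of the 7. The genes that rose, fell or were not called thus each include a gene with an ATTTA pentamer. A match in letters is no measured binding site.

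The 7 transcripts also differed in size and base composition. Coding sequences ran from 1401 bases for VIM to 4866 bases for NES, against a median of 1371 bases for 10608 tested genes with a canonical coding transcript. The GC content of the coding sequence was 54.8% for NEFM, the lowest of the 7, and 65.7% for PRPH, the highest. For all tested genes the median was 52.0%, so that all 7 lay above it. Of the called genes, NES and VIM had 59.2% and 56.5% and INA had 62.9%. With NEFM, the 4 called genes showed no order by direction of change in GC content. In length of coding sequence they did. NEFM (2751 bases) and NES (4866 bases), which rose, were longer than INA (1500 bases) and VIM (1401 bases), which fell. NEFL, not called, had 1632 bases. Whether length bears on the change of these genes was not tested.

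The mRNAs of the neuronal filament subunits were therefore present in other proportions in Helz-null cells, and protein was not measured. Within a library, the ratio of NEFM to NEFL in FPKM was 2.43 and 2.19 in WT cells and 4.44 and 4.37 in Helz-null cells, 1.91-fold higher. The ratio of NEFM to INA was 2.885 and 2.997 in WT cells and 11.8 and 10.8 in Helz-null cells, 3.85-fold higher. The ratio of NEFL to INA, computed after the values of both genes had been seen, was 1.19 and 1.37 in WT cells and 2.66 and 2.48 in Helz-null cells, 2.02-fold higher. The libraries of the genotypes did not overlap in any of the 3 ratios, and such ratios do not depend on the scaling between libraries. The ratio of NEFM to NEFH was 408 and 293 in WT cells and 516 and 545 in Helz-null cells.

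Expressed as a share of the summed FPKM of NEFL, NEFM, NEFH and INA, NEFM made up 56.8% and 55.8% in WT cells and 76.2% and 75.6% in Helz-null cells. INA made up 19.7% and 18.6% in WT cells and 6.45% and 6.97% in Helz-null cells. The share of NEFL went from 23.4% and 25.5% to 17.2% and 17.3%, although its own level did not differ beyond the spread of the libraries. NEFH contributed less than 0.2% in every library. The sum of the 4 genes was 117 and 114 FPKM in WT cells and 159 and 158 FPKM in Helz-null cells, a 1.37-fold difference of the means. With n = 2 libraries in each group, the exact permutation test cannot give a small p, and none was computed for ratios or shares.

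**Figure D2:**
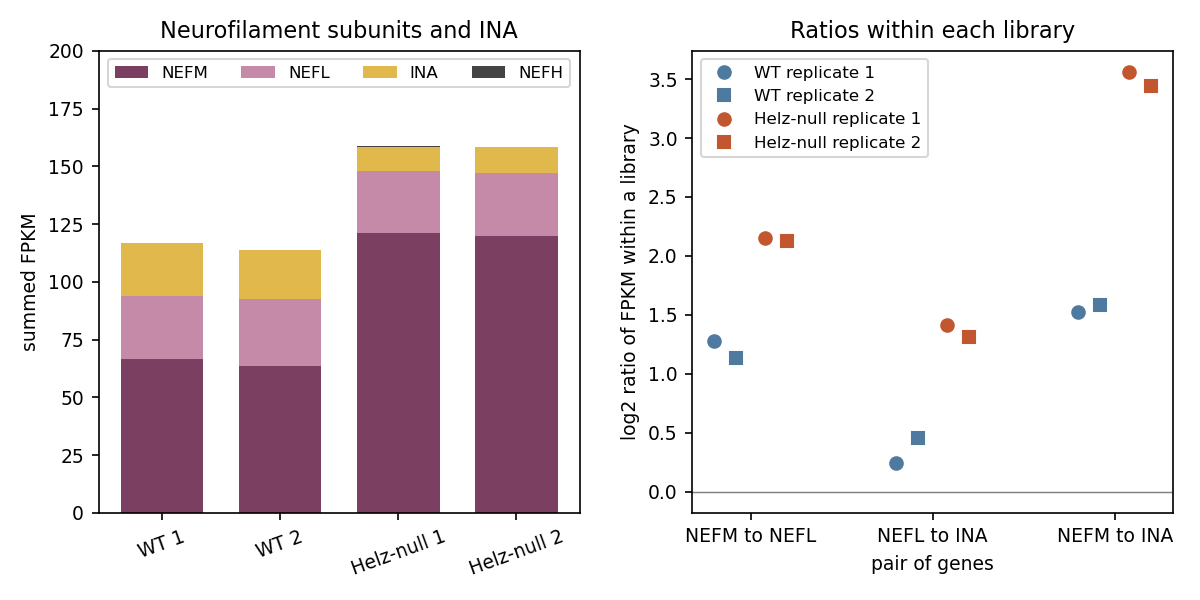
Left, summed FPKM of NEFM, NEFL, INA and NEFH (too low to be seen) stacked in each library; right, log2 ratios of FPKM within each library for 3 pairs of these genes, blue for WT and orange for Helz-null, circles for replicate 1 and squares for replicate 2. The stacks rise from 117 and 114 FPKM in WT to 159 and 158 FPKM in Helz-null cells while the INA segment shrinks, and all 3 ratios are higher in both Helz-null libraries.

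PRPH, which encodes peripherin, a subunit of peripheral neurons (chromosome 12, 49688930 to 49692469, plus strand), was as poorly covered as NEFH, with 70 and 31 counts in WT and 31 and 52 counts in Helz-null cells. Its levels were 1.11 and 0.756 CPM in WT and 0.750 and 0.746 CPM in Helz-null cells. WT replicate 1 stood above the others, and the gap between the groups, 0.0060 CPM, was less than the value of 3 counts. The log2FC was -0.36 with a standard error of 0.31 (adjusted p = 0.40, edgeR fit of the genes passing filterByExpr), and PRPH was not called. At less than 1 FPKM in every library, it was the least abundant of the 7 genes after NEFH.

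NES, which encodes the progenitor protein nestin (chromosome 1, 156638555 to 156647199, minus strand), was up-regulated from a low level. It was measured at 13.1 and 13.3 CPM in WT cells and at 17.8 and 17.0 CPM in Helz-null cells. Both Helz-null libraries exceeded both WT libraries, by at least 3.66 CPM. The mean level was 1.32-fold higher (log2FC 0.40 ± 0.078 SE, edgeR adjusted p = 6.29e-05). Tested against a minimum change of 1.2-fold, NES was no longer called (adjusted p = 0.16). Its 2.37 ± 0.033 FPKM in WT cells (SD, n = 2) exceeded only 5.22% of the tested genes.

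VIM, which encodes vimentin (chromosome 10, 17270240 to 17279592, plus strand), was the most abundant of the 7 genes, and 99.0% of the tested genes were lower in WT cells. Its levels were 1074 and 1071 CPM in WT cells and 979 and 964 CPM in Helz-null cells. The groups did not overlap, and the gap between them was 92.4 CPM. The change was small, 1.10-fold lower in Helz-null cells (log2FC -0.14 ± 0.026 SE, edgeR adjusted p = 2.04e-05). VIM was not called against a minimum change of 1.2-fold (adjusted p = 1.00), nor without Helz-null replicate 2 (log2FC -0.13, adjusted p = 0.0099).

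The antisense gene VIM-AS1, which overlaps the start of VIM on the opposite strand, was counted alongside it. It shares 656 exonic bases with VIM (chromosome 10, 17271344 to 17272017), 30.9% of its own exonic length. Its counts were 0.318 and 0.317 times those of VIM in the WT libraries and 0.312 and 0.314 times those of VIM in the Helz-null libraries. Use of strand in the counting was not stated, so the reads of VIM and VIM-AS1 cannot be told apart within the shared bases.

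VIM dominated the summed level of the 7 genes, with 80.7% and 81.1% of their FPKM in WT cells and 73.9% and 73.6% in Helz-null cells. NEFM made up 10.7% and 10.3% in WT cells and 19.5% in each Helz-null library. The sum itself was 621 ± 3.14 FPKM in WT and 617 ± 5.14 FPKM in Helz-null cells (SD, n = 2 each), a difference smaller than the SD of the Helz-null libraries. The ratio of NES to VIM, 2 subunits that assemble with each other, was 0.00467 and 0.00478 in WT cells and 0.00699 and 0.00677 in Helz-null cells, 1.46-fold higher. The ratio of VIM to the sum of the other 6 genes was 4.19 and 4.30 in WT cells and 2.83 and 2.79 in Helz-null cells.

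In order of WT level, VIM (502 FPKM) was followed by NEFM (65.0 FPKM), NEFL (28.2 FPKM), INA (22.1 FPKM), NES (2.37 FPKM), PRPH (0.510 FPKM) and NEFH (0.190 FPKM). In Helz-null cells the order was the same, with 455 FPKM for VIM, 120 FPKM for NEFM, 27.3 FPKM for NEFL, 10.6 FPKM for INA, 3.13 FPKM for NES, 0.408 FPKM for PRPH and 0.227 FPKM for NEFH. Neighbours in this order were separated by more than the spread of the libraries in both genotypes. NEFL and INA lay close in WT cells (27.3 and 29.0 against 23.0 and 21.2 FPKM) and far apart in Helz-null cells (27.2 and 27.4 against 10.2 and 11.0 FPKM).

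The remaining intermediate filament genes comprise keratins of epithelia, lamins of the nuclear envelope, and muscle, glial and lens genes. Of 48 such genes listed, 22 had 0 counts in every library, and 8 were among the tested genes. Of these 8, 0 were called higher and 3 lower by edgeR, with a median log2FC of -0.053. At an unadjusted p under 0.05, 1 was higher and 4 were lower, and DESeq2 called 0 higher and 1 lower. The share of all tested genes at that unadjusted threshold was not counted, so such counts, here and below, show no excess. Of 5 further genes that passed filterByExpr 0 were called in that fit, and 1, BFSP1 (log2FC 0.40, picked after its value had been seen), was higher at an unadjusted p under 0.05. Among 39 keratin genes, 21 had 0 counts in every library and 35 stayed under 1 FPKM throughout.

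KRT8, which encodes the simple-epithelial keratin 8, changed about as much as INA. It was measured at 27.42 and 29.98 CPM in WT cells and at 13.9 and 14.9 CPM in Helz-null cells, 1.99-fold lower (log2FC -0.98 ± 0.070 SE, edgeR adjusted p = 7.13e-15). KRT18, the partner of keratin 8 in the filament, was measured at 65.9 and 64.6 CPM in WT cells and at 58.5 and 58.1 CPM in Helz-null cells (log2FC -0.16, adjusted p = 0.0016). The ratio of KRT8 to KRT18 in FPKM, computed after the values had been seen, was 0.282 and 0.314 in WT cells and 0.162 and 0.174 in Helz-null cells. KRT10 was lower with a log2FC of -0.25 (adjusted p = 0.0010). The calls of KRT10 and KRT18 were lost with DESeq2 and without either Helz-null replicate, that of KRT10 also without WT replicate 2 (log2FC -0.18), and that of KRT18 also without WT replicate 1 (-0.15) and with library size scaling (-0.13). KRT8 was called under each of these alternatives. Both KRT8 and KRT18 have many processed pseudogenes that could share their reads.

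The other 5 tested genes of the list were not called. SYNC, which encodes syncoilin, had a log2FC of 0.12 (adjusted p = 0.0078), the only value above 0 besides LMNA (0.053), and it was called with library size scaling (log2FC 0.15) and without WT replicate 2 (0.15). The lamin genes LMNA, LMNB1 and LMNB2 had log2FC values of 0.053, -0.044 and -0.058, with standard errors between 0.028 and 0.041. KRT222 had a log2FC of -0.049 with a standard error of 0.11.

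**Figure D3:**
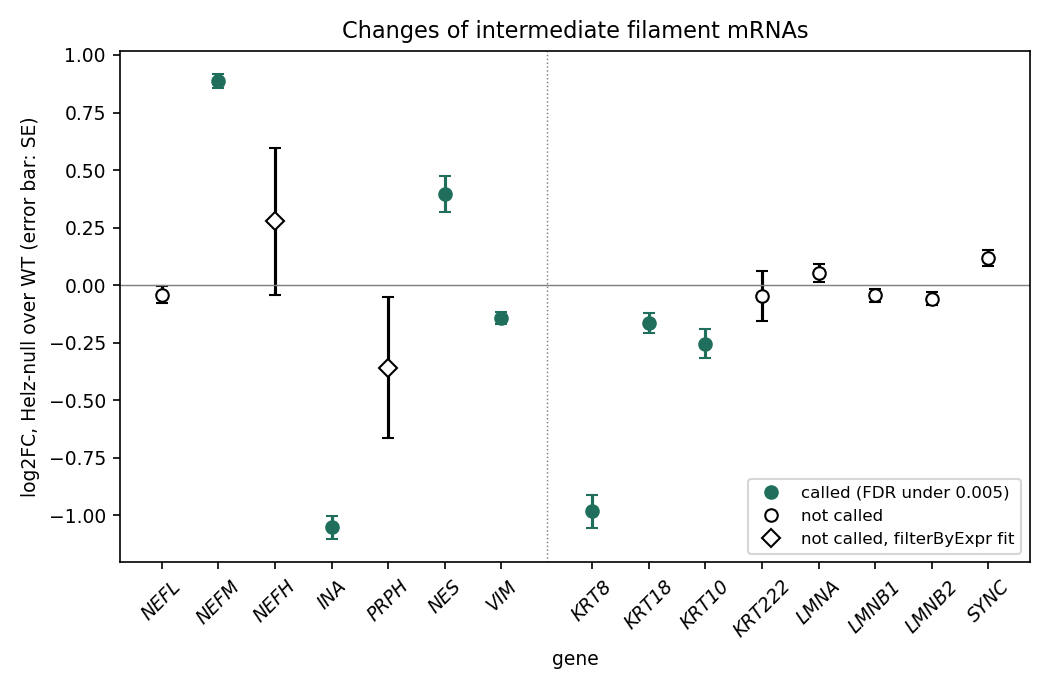
log2FC between Helz-null and WT cells for the 7 intermediate filament genes (left of the dotted line) and for 8 further tested genes of the family (right), with standard errors as bars, filled symbols for called genes and diamonds for the filterByExpr fit. NEFM stands at 0.89, INA at -1.05 and KRT8 at -0.98, and the lamins lie within 0.06 of 0.

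The genes whose profile over the 4 libraries lay closest to each of the 5 tested genes were found by the Euclidean distance between centred log2 CPM. Such a profile rests on n = 4 libraries and mostly on the size of the change. Closest to NEFM were FXYD6 (distance 0.035), ENOX2 (0.052) and CACNA1H (0.052), with log2FC values of 0.92, 0.87 and 0.86. Closest to INA were ZCCHC4 (0.078), CA2 (0.10), which encodes a carbonic anhydrase, and ENO2 (0.13), the neuronal enolase, with log2FC values of -0.98, -1.06 and -0.94. Closest to NES were WDR60 (0.013), GDF1 (0.018), which overlaps CERS1, and TMEM132E (0.020), to VIM ZC3H10 (0.0053), CACUL1 (0.0066) and THRIL (0.0072), and to NEFL RIDA (0.0057), CENPA (0.012) and REXO1 (0.012).

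To compare each of the 7 genes with its surroundings in the Helz-null line, it was set beside the 10 nearest tested genes on each side, within 5 Mb. The neighbours named here were picked after their values had been seen. Calls among neighbours stand against 13.9% of all tested genes called higher and 15.5% lower by edgeR. Around INA, the 20 neighbours had a median log2FC of -0.0090, 0 were called higher and 1 lower by edgeR, and their values ran from -0.26 to 0.16. At an unadjusted p under 0.05, 5 of them were higher and 2 lower, and DESeq2 called 0 higher and 1 lower. With library size scaling, 3 were called higher and 1 lower, the median was 0.024 and 14 lay above 0, against 9 in the reported fit. In the reported fit, INA lay 1.04 below the median of its neighbours. NT5C2, whose annotated start lies 0.467 kb past that of INA and so within INA, had a log2FC of -0.016. Since use of strand in the counting was not stated, reads of any bases shared by INA and NT5C2 cannot be told apart. Around NEFM and NEFL, which share their neighbours, the median was 0.077 with 3 of 20 genes called higher and 1 lower. At an unadjusted p under 0.05, 8 of them were higher and 1 lower, with no share of all tested genes to set beside these counts. DESeq2 called 2 higher and 0 lower, and library size scaling gave 4 higher and 0 lower. The highest of them, PNMA2, had a log2FC of 0.41, against 0.89 for NEFM.

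Around NES the median was 0.049, and 6 of 20 neighbours were called higher and 1 lower. GLMP, with a log2FC of 0.37, came closest to the 0.40 of NES itself. With 20 neighbours on each side, 13 of 40 were called higher and the highest, at 0.50, exceeded NES. Around VIM only 17 tested genes lay within reach, with a median of 0.074 and 5 called higher. Of these, 0 were called lower by edgeR and by DESeq2, and 2 were lower at an unadjusted p under 0.05, so that VIM went down among neighbours that were higher or not called. The median was 0.072 around NEFH (4 higher, 1 lower of 20) and 0.017 around PRPH (2 higher, 1 lower of 20).

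Genes whose products act on intermediate filaments moved in both directions. The edgeR calls of this and the following lists stand against 13.9% of all tested genes called higher and 15.5% lower. Of 10 tested linker and turnover genes, 2 were called higher and 2 lower (median log2FC -0.041). PLEC, which encodes plectin, the large protein that ties intermediate filaments to other cell structures, was higher with a log2FC of 0.45 (edgeR adjusted p = 2.94e-10), and the related MACF1 had 0.22. CAPN2, the large subunit of a calpain protease that can cleave filament proteins, was lower with a log2FC of -0.45, and DSP, the desmosomal linker desmoplakin, with -0.21. The list's other genes that passed filterByExpr, 3 in number, were all called in that fit, at levels near or below 1 FPKM. PPL, which encodes the linker periplakin, was measured at 1.10 and 1.02 CPM in WT cells and at 3.51 and 3.50 CPM in Helz-null cells (log2FC 1.71), while EPPK1, the related epiplakin gene (-1.24), and FBXO2, a ubiquitin ligase subunit (-0.93), were lower. Here and in the lists that follow, genes outside the tested ones were added after their values had been seen. Of 22 tested genes for kinases and phosphatases that act on filament proteins, 6 were called higher and 0 lower by edgeR (median 0.024). At an unadjusted p under 0.05, 7 were higher and 3 lower, and DESeq2 called 3 higher and 0 lower. CDK5, a kinase that phosphorylates neurofilament tails, had the largest of these values (log2FC 0.35), followed by GSK3A (0.19), PAK1 (0.17) and PRKACA (0.16). CDK5R1, named after its value had been seen, had the lowest of the list (-0.22, edgeR adjusted p = 0.018) and was not called.

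Among 12 tested genes for proteins that bind neurofilament or other mRNAs, 1 was called higher and 2 lower (median log2FC -0.055). These were MATR3, an RNA-binding nuclear matrix protein (0.12), ALDOA (-0.15) and FMR1 (-0.13). With library size scaling the balance turned, with 2 called higher and 1 lower (median -0.021). DESeq2 called 1 higher and 2 lower, and at an unadjusted p under 0.05 4 were higher and 6 lower. Outside the tested genes, ARHGEF28 (0.58) was called higher in the filterByExpr fit. Of the 11 tested genes of the REST repressor, which silences neuronal genes in other cells, and its partners, 1 was called higher and 3 lower (median 0.015). REST fell by 0.22 on the log2 scale, as did SIN3A, HDAC2 fell by 0.29, and CTDSP2, a phosphatase, rose by 0.23. All of these changes were smaller than those of NEFM and INA.

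Other genes of the neuronal cytoskeleton, for microtubule, ankyrin, spectrin and growth cone proteins with which neurofilaments share the axon, made up a list of 25. Of 15 tested genes, all 15 had a log2FC above 0, 7 were called higher and 0 lower by edgeR, and the median was 0.14, or 0.18 with library size scaling. Of all 10978 tested genes, 5455 had a log2FC above 0, 13.9% were called higher and 15.5% lower. Within the list, DESeq2 called 5 higher and 0 lower, and at an unadjusted p under 0.05 10 were higher and 0 lower. STMN3 (log2FC 0.64), CRMP1 (0.51), MAPT, which encodes tau (0.33), and the tubulin TUBB2B (0.32) had the largest values. TUBB2A and TUBB2B are near-identical copies whose counts are uncertain. Of 7 further genes of the list that passed filterByExpr, 1 was called higher in that fit, ANK2 (0.28), and 2 lower, MAP2 (mean levels of 1.10 CPM for WT and 0.207 CPM for Helz-null cells, log2FC -2.43) and DPYSL3 (-0.69). The summed level of the whole list was 274 to 278 FPKM in WT and 316 to 318 FPKM in Helz-null cells.

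Markers of other cell types moved in both directions beside the intermediate filament genes. Of 20 neuronal markers, 7 were tested, 3 were called higher and 2 lower (median log2FC 0.15), 10 were under 1 FPKM in every library, and the defining markers TH and SLC17A6 were at 0 counts. NCAM1 (0.40), POU4F1 (0.31) and SYP (0.29) were higher, while ENO2 (-0.94) and UCHL1 (-0.29), at 245 FPKM in WT cells the most abundant of the list, were lower. Of 6 further neuronal markers that passed filterByExpr, 2 were called higher in that fit, CHGA (0.93) and RBFOX3 (0.68), and 0 lower, also at an unadjusted p under 0.05. The summed level of the neuronal markers was 290 to 293 FPKM in WT and 248 to 252 FPKM in Helz-null cells, a direction set by UCHL1, since without it the sum was 46.1 to 46.8 FPKM in WT and 49.5 to 49.8 FPKM in Helz-null cells. Of 14 further progenitor markers, 8 were tested, 2 were called higher (MSI1 0.23, NOTCH1 0.18) and 0 lower by edgeR. DESeq2 called 1 higher and 0 lower, and at an unadjusted p under 0.05 2 were higher and 1 lower. MSI2 (17.1 FPKM in WT cells) was the most abundant of the list. Their summed level was 69.6 to 70.1 FPKM in WT and 71.3 to 71.6 FPKM in Helz-null cells.

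Of 17 mesenchymal markers, the class to which VIM is usually assigned, 9 were tested, 4 were called higher and 1 lower (median log2FC 0.16). MMP2 (0.96), ACTA2 (0.44), TWIST1 (0.41) and ZEB1 (0.23) were higher, FN1 (-0.32) was lower as VIM was, and CDH2 (21.9 FPKM in WT cells) was the most abundant. Of 6 further mesenchymal markers that passed filterByExpr, TWIST2 (0.85) was called higher in that fit and 0 were called lower, with 1 lower at an unadjusted p under 0.05. Their summed level was 78.7 to 79.0 FPKM in WT and 87.7 to 88.7 FPKM in Helz-null cells. Both tested epithelial markers of 15 were lower, MARVELD2 (log2FC -0.82, at 4.53 FPKM in WT cells the most abundant of the list) and ESRP2 (-0.47). The untested markers went both ways. Of 6 that passed filterByExpr, EPCAM (-1.52) was called lower in that fit and 0 were called higher, but ST14 (1.23, edgeR adjusted p = 0.035) and TJP3 (0.82, edgeR adjusted p = 0.047) were higher at an unadjusted p under 0.05. CDH1, which encodes E-cadherin, was measured at 4.67 and 5.95 CPM in WT cells and at 5.59 and 5.05 CPM in Helz-null cells, and the groups overlapped. The summed level of the list was 9.27 to 9.42 FPKM in WT and 6.11 to 6.66 FPKM in Helz-null cells, 12 of 15 were under 1 FPKM in every library, and CLDN3 was at 0 counts. KRT8 and KRT18, which are also used as epithelial markers, were lower. Of 10 glial markers 1 was tested, OLIG2 (3.78 FPKM in WT cells), and it was not called. Of 9 blood and endothelial markers 0 were tested, 8 were under 1 FPKM in every library, HBB was at 0 counts, and the sum was between 1.13 and 1.42 FPKM. What part these differences have in the levels of the 7 genes was not tested.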

How the data were processed

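Read pairs were freed of ribosomal RNA (Bowtie2), aligned to hg19 (TopHat2) and summarised by gene (QuasR) by the authors, and the deposited counts are not normalized. Versions, gene annotation, use of strand and counting of mates are not given in the sources used here. The deposited comparison holds the authors' edgeR results (log2 ratios, log2 abundance, p-values and their FDR) for genes kept by an FPKM above 2, and only its list of 10978 genes was used. The deposited table also has a width for each gene, another value with no normalization, from which FPKM was computed here.

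Fits were made in edgeR 4.0.16 (with limma 3.58.1, under R 4.3.3; TMM, estimateDisp, glmQLFit, glmQLFTest), with genotype as the only term, Benjamini-Hochberg adjustment over all genes tested and calls at an FDR under 0.005. The steps were tested on simulated data. CPM are over the counts in tested genes, 97.8% of each library, and TMM factors lay between 0.987 and 1.01. The biological coefficient of variation was 2.60%. Counts of the WT libraries differed by more than sampling noise (chi-square of 4.16 per degree of freedom), as did those of the Helz-null libraries (3.01). P-values measure the spread between these libraries, and floors of 3 counts cover counting error only. Members and lists were chosen with earlier results of these data known. Named genes were HELZ, the 7 genes, tested genes of the same family, up to 4 called genes with the largest absolute log2FC in each direction of each list, the most abundant marker of each marker list and the 3 genes with the closest profile. Positions, UTRs and coding sequences came from GENCODE v44 on GRCh37, which held 10379 tested genes under their symbol and 514 under an older one, and 85 were unmatched. DESeq2 1.42.0, other scalings, gene filters, a replicate block, a minimum change, divided counts and libraries left out in turn were the alternatives. Python 3.11.15, numpy 2.4.6, pandas 2.3.3 and matplotlib 3.10.9 were used.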

Additional observations from a re-analysis of the deposited data

How the results depend on the processing

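NEFM and INA kept their direction and their call under all 13 alternatives, 4 of which leave out 1 library. Against a minimum change of 1.2-fold, 1 of the 7 genes was called higher and 1 lower, 1 other intermediate filament gene was called lower, and 4 partner and marker genes were called higher and 3 lower. Across all genes that test called 217 higher and 318 lower, against 1524 and 1701 in the reported fit. With library size scaling only, the split was 2109 higher and 1318 lower, the median of all tested genes moved to 0.032, and 1 other intermediate filament gene (SYNC) was called higher. With DESeq2, 1 other intermediate filament gene (KRT8) was called lower, and across all genes 1102 were higher and 1288 lower.

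With single libraries left out, 1 genotype is a single library that is assumed to vary like the pair of the other, here and wherever a call is said to be lost without a replicate. The log2FC of NEFM then lay between 0.86 and 0.92, of INA between -1.11 and -0.99, of NES between 0.37 and 0.43, of VIM between -0.15 and -0.13, of NEFL between -0.086 and 0.0017, of NEFH between 0.057 and 0.47 and of PRPH between -0.58 and -0.021. The number of the 7 genes called lower was 1 to 2, that of other intermediate filament genes called lower 1 to 2 and called higher 0 to 1, and the partner and marker lists had 18 to 26 genes called higher and 9 to 14 lower. Across all genes, Helz-null replicate 2 mattered most, with 1027 higher and 1180 lower without it. With 5 neighbours on each side the median log2FC was -0.012 around NEFM and NEFL and 0.0088 around NES, and with 20 it was 0.051 around NEFM and NEFL and 0.061 around NEFH. Same-numbered libraries did not deviate together over all genes (correlation of 0.034), so replicate numbers were not used as pairs. A pairing that touches only some genes is not excluded by this. With a replicate block, 1677 genes were called higher and 1841 lower across all genes, against 1524 and 1701 in the reported fit. A replicate block gave log2FC values of 0.89 for NEFM and -1.05 for INA, and it changed no call among the 7 genes. Depth limits NEFH and PRPH, and with 2 libraries a group no library could be tested for standing apart.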
